A study of Mus musculus with 27 samples.

Results

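The response of KUSA4b10 cells to parathyroid hormone-related protein, PTHrP, was followed from 1 to 6 h by asking, gene by gene, how far its effect at 6 h differed from its effect at 1 h. KUSA4b10 cells are a mouse marrow stroma line able to differentiate along the osteoblast lineage. The effects compared came from 12 of the 27 Affymetrix arrays of the study, with 3 arrays per group, chosen by their titles. The groups were untreated cells and cells given PTHrP(1-141) at 20 nM, each at 1 and 6 h. Cells at 24 h and cells given PTH(1-34) at 10 nM served as reference. Their arrays also entered the estimate of each gene's spread, on which the calls rest. Untreated cells received no peptide. All arrays are of a single cell line, and the labels number the replicates without calling them independent cultures. The p-values therefore reflect the spread among these samples, and that spread may be technical.

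PTHrP and PTH act on the same G protein-coupled receptor of osteoblast-lineage cells, which raises cyclic AMP and activates protein kinase A. That kinase phosphorylates CREB, a factor bound to cyclic AMP response elements in promoters, and genes with such elements are transcribed within minutes without new protein. Their products include transcription factors, phosphatases and other feedback regulators, and later genes follow once those products have been made. In osteoblast-lineage cells the later targets include RANKL, the signal for osteoclast formation, and its decoy receptor osteoprotegerin.

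The change of effect was calculated as (PTHrP minus control at 6 h) minus (PTHrP minus control at 1 h) on the log2 intensity scale, so untreated cells at both times are part of each value. Of 15711 genes tested, 1915 were called, meaning a limma adjusted p below 0.05, which is 12.2% of the genes. The effect was higher at 6 h than at 1 h for 587 (3.74%) and lower for 1328 (8.45%), and 283 changed by more than 2-fold. A fit of the 12 arrays alone called 1380 genes, 414 higher and 966 lower, and kept 69.6% of the 1915 calls. By itself, PTHrP against control called 285 genes at 1 h (1.81%) and 3288 at 6 h (20.9%). The median change of effect over all genes tested was 0.02. Just inside the threshold lay Garre1 (-0.35), Pdlim2 (-0.37) and Gpr161 (-0.49), and just outside it Rnf186 (0.39), Tex9 (-0.48) and Maf (-0.43).

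Called genes were then sorted by the calls at each time. A response was growing if it was called at 6 h and larger there than at 1 h, fading if it was called at 1 h and smaller at 6 h, and reversing if both times were called with opposite signs. The 3 patterns held 530 growing increases, 1143 growing decreases, 76 fading increases, 8 fading decreases and 21 reversals, and 137 genes fitted none of them. A growing response need not be called at 1 h, and 1139 of the 1143 growing decreases were not. Estimates at 1 and 6 h had opposite signs in 897 growing decreases and 213 growing increases. These classes were made from the same calls, so their effects at 1 and 6 h describe them and test nothing. Of the 285 genes called at 1 h, 191 had a smaller effect at 6 h and 94 a larger one, and 140 had a called change.

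**Figure D1:**
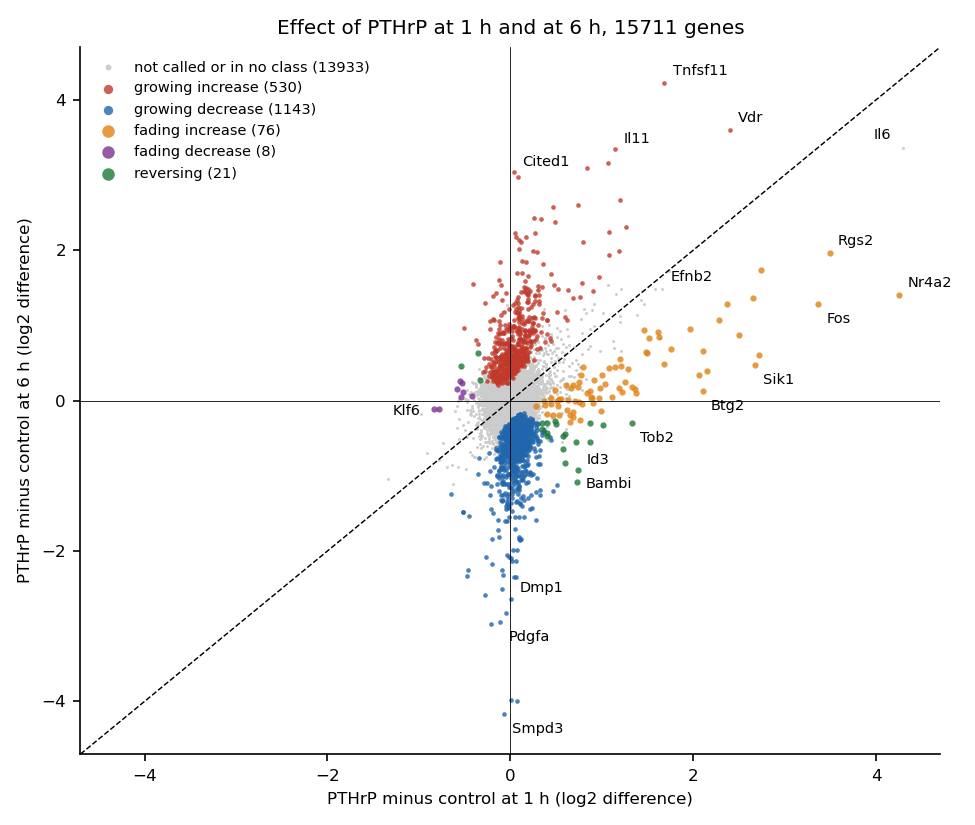
Each point is a gene, with the log2 difference between PTHrP and untreated cells at 1 h across and at 6 h up, coloured by class, and the dashed line marks equal effects. The growing classes (530 and 1143 genes) stand close to the vertical line of no effect at 1 h, and the 76 fading increases spread to the right below the dashed line.

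Array PTHrP 1 h replicate 3 stood apart and every change of effect includes it. Its correlations with the other arrays of its group were 0.983 and 0.985, against 0.994 or more in the other 3 groups (across genes, which are not independent replicates). Without it 4087 genes were called (41.7% higher, against 30.7% with it), and 97.8% of the calls made with it were kept. The classes then held 735 growing increases, 1624 growing decreases, 223 fading increases, 217 fading decreases and 147 reversals. A further 1056 genes, not called with the array, were called without it but fitted none of the patterns. Its median offset from its 2 partner arrays was 0.06 over all genes tested, -0.23 in the fading increases and -0.10 in the growing decreases. Re-normalized values moved the split as well: calls were 47.3% higher after quantile normalization and 51.2% after cyclic loess. With array weights, which leave the values as they are and gave this array 0.127, the lowest of the 12, calls were 48.8% higher. The 12 arrays had median intensities (linear scale) between 83.4 and 91.1. Of the RNA quality ratios, the 3' to 5' ratio of Gapdh differed in its own change of effect by 0.0737 log2 units (exact p = 0.01, two-sided, treatment labels permuted within each time) and that of Actb by 0.00152 (exact p = 0.985), and their part in the results was not tested.

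Values are those of a gene's brightest probe set, and some depend on that choice. With the mean of a gene's probe sets the change moved by over 1.5 times for Shc2 (0.86), Pde4b (0.48), Pde4d (0.44), Vcan (0.66) and Nrp1 (0.64) among growing increases, and for Car8 (-1.72), Egr3 (-1.08), Panx3 (-1.15) and Lifr (-0.90) among growing decreases. It did so too for Nr4a2 (-1.83), Sox9 (-0.39), Fosl2 (-0.32, not called), Tob2 (-1.01), Spry2 (-0.68), Enc1 (-0.77) and Grasp (-0.72). Pde4d also lost its call in the fit of the 12 arrays alone and without control 1 h replicate 1.

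The stromal lineage genes Col1a1 and Col1a2, which encode type I collagen, lay at 14.67 to 14.80 and 14.49 to 14.59 on the 12 arrays (log2 intensity), and Sp7, the gene of osterix, at 9.86 to 11.12. Of these lineage markers 1 of 5 was called, Sp7 (20%, against 12.2% of all genes). The adipocyte markers Adipoq and Fabp4 were also bright, at 11.05 to 12.09 and 10.26 to 11.47, and 0 of 5 adipocyte, 0 of 4 macrophage and blood and 0 of 3 endothelium markers were called at a limma adjusted p below 0.05 (1, 1 and 2 at an unadjusted p below 0.05). Of 4 chondrocyte markers Sox9 was called (-0.65, adjusted p = 0.00139), a fading increase, and of 5 muscle markers Acta1 (0.46, adjusted p = 0.0192), and their part in the results was not tested. Mean levels of the macrophage list ran from 6.40 to 6.64 on the PTHrP arrays at 1 h and from 6.61 to 6.78 at 6 h, against 6.54 to 6.63 and 6.55 to 6.61 in untreated cells. In such bulk RNA fewer cells of a type and less RNA per cell cannot be told apart.

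Growing increases were led by a nuclear co-regulator, by cytokines and by regulators of receptor signalling. Cited1, which binds the co-activators CBP and p300, stood at 5.97, 6.03 and 5.88 in untreated cells and 5.84, 6.14 and 6.02 with PTHrP at 1 h, and at 5.69, 5.80 and 5.93 against 9.18, 8.52 and 8.83 at 6 h. The groups overlapped at 1 h and were far apart at 6 h, where all 3 treated arrays were high. Its effect grew by 3.00 ± 0.16 log2 units (SE, adjusted p = 5.99e-12). At 24 h the effect was -0.05 ± 0.11, so Cited1 passed at 6 h and at neither of the other times.

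Tnfsf11, the gene of RANKL, had risen by 1 h and rose further. Its values were 6.19, 5.76 and 6.02 in untreated and 8.20, 7.87 and 6.96 in treated cells at 1 h, and 5.35, 5.30 and 4.66 against 9.28, 9.23 and 9.46 at 6 h. Treated arrays lay above untreated arrays at both times, and at 1 h replicate 3 was the lowest of the treated arrays. Tnfsf11 rose by 1.68 ± 0.27 at 1 h and by 4.22 ± 0.27 at 6 h, a growth of 2.54 ± 0.39 (adjusted p = 5.73e-05). In untreated cells it changed by -0.89 between the times, which did not pass (adjusted p = 0.104). The effect at 24 h was 0.44 ± 0.27 and did not pass.

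Of the 530 growing increases, 31 were called at 1 h already, and the other 499 appeared as late responses. Besides Tnfsf11 the early group held Il11, a cytokine that signals through gp130, at 6.94, 6.89 and 7.07 against 8.26, 8.09 and 7.98 at 1 h and 6.61, 6.56 and 6.64 against 10.09, 9.69 and 10.06 at 6 h. No treated Il11 array overlapped an untreated array at either time, and its effect grew by 2.20 ± 0.17. Shc2, an adaptor of receptor kinases, grew by 2.26 ± 0.20 on its brightest probe set and by 0.17 and 0.14, not called, on the other 2, so its growth is uncertain. Ackr3, an atypical chemokine receptor, grew by 2.09 ± 0.34 and Vdr, the vitamin D receptor, by 1.20 ± 0.31. For Vdr the change was 0.73 without replicate 3 of PTHrP at 1 h, which lay at 9.49 where its partners lay at 11.11 and 10.68. Its other probe set gave 1.43, but the call of Vdr was lost in the fit of the 12 arrays alone. Snai1, a repressor of epithelial genes, S1pr1, a receptor of sphingosine 1-phosphate, and Wnt4, a Wnt ligand, belonged to the same 31, with growth of 1.04, 0.56 and 0.86.

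Regulators of receptor and cyclic AMP signalling were found in both directions. Ramp3, a receptor activity-modifying protein that partners G protein-coupled receptors, stood at 6.58, 6.75 and 6.83 against 7.30, 7.09 and 7.18 at 1 h and at 6.53, 6.75 and 6.71 against 9.29, 9.28 and 9.15 at 6 h. Treated arrays were above untreated arrays at both times, and the gap widened by 2.11 ± 0.15 (adjusted p = 6.59e-10). Arrb1, the gene of beta-arrestin 1, which uncouples activated receptors, was level at 1 h (0.05 ± 0.15) and grew by 2.18 ± 0.21. The phosphodiesterase genes Pde4b and Pde4d, whose products degrade cyclic AMP, grew by 1.47 ± 0.23 and 0.80 ± 0.22 from effects of 1.20 and 1.19 at 1 h. Akap12, a scaffold of protein kinase A, grew by 1.25. Of 35 tested genes of cyclic AMP and protein kinase A signalling, 6 had a higher and 7 a lower effect at 6 h (37.1% called, against 12.2% of all genes, with a median change of -0.000293 against 0.02). The lower ones included Prkar2b, a regulatory subunit of protein kinase A, at -1.23, Ramp1 at -1.14 and the receptor gene itself.

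Pth1r, that receptor gene, lay at 11.02, 11.19 and 11.14 in untreated and 11.11, 11.24 and 11.07 in treated cells at 1 h, and at 11.29, 11.39 and 11.38 against 11.04, 10.84 and 11.00 at 6 h. The groups overlapped at 1 h only. The change of -0.42 ± 0.13 passed at adjusted p = 0.0426, but not with quantile or cyclic loess normalization, with a replicate block, or without any of 9 of the 12 arrays in turn.

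Several genes of cytokine signalling through gp130, the shared receptor subunit of the interleukin 6 family, had a higher effect at 6 h. Of 19 tested genes 7 had a higher and 2 a lower effect at 6 h (47.4% called, against 12.2% of all genes, median change 0.17). Osmr, a receptor subunit for oncostatin M, grew by 1.63 ± 0.14, Il6st, the gene of gp130, by 0.72 and Stat3, the factor it activates, by 0.79. Bcl3, which binds NF-kappa B subunits, grew by 1.31 ± 0.16 from an effect of 0.79 at 1 h. Socs3, the feedback inhibitor of this pathway, stood at 10.75, 9.73 and 9.78 against 10.10, 9.92 and 10.51 at 1 h and at 8.74, 8.91 and 8.76 against 11.14, 10.63 and 11.05 at 6 h. Untreated Socs3 dropped by 1.28 ± 0.21 between the times, which passed, while treated cells gained 0.76 ± 0.21, so most of its growth of 2.05 ± 0.30 lay in the untreated arrays. Lifr, the receptor subunit for leukemia inhibitory factor, went the other way, with a growing decrease of -1.35 ± 0.16, and its ligand gene Lif was a fading increase (1.96 at 1 h, 0.96 at 6 h).

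Il6 itself was not called by the change of effect. It lay at 6.61, 5.29 and 5.86 against 10.09, 9.66 and 10.89 at 1 h and at 4.54, 4.13 and 4.63 against 8.05, 7.72 and 7.62 at 6 h. All treated arrays were above all untreated arrays at each time. The effects of 4.29 ± 0.37 and 3.36 ± 0.37 differed by -0.93 ± 0.52 (adjusted p = 0.267), a difference within the error of this design. The untreated Il6 arrays at 6 h lay under log2 5, the filter level, so the effect at 6 h may be understated. The cytokine gene Il33 was the 1 called gene of 13 tested chemokine and acute phase genes (7.69%, under the 12.2% of all genes, with 3 at an unadjusted p below 0.05), with growth of 2.88 ± 0.23 from 0.08 ± 0.16 at 1 h.

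Growing increases also covered the unfolded protein and integrated stress responses, by which cells answer misfolded protein in the endoplasmic reticulum and amino acid shortage. Of 25 tested genes 9 were called, all higher (36% against 3.74% of all genes, median change 0.53 against 0.02). Ddit3, the gene of the stress factor CHOP, grew by 1.57 ± 0.26, Trib3, its target, by 1.95 ± 0.49, Chac1, which degrades glutathione, by 1.46 ± 0.39, and Atf4, the central factor of the integrated stress response, by 0.61. The call of Chac1 was lost in the fit of the 12 arrays alone and without PTHrP 1 h replicate 1 or 2, and without replicate 3 it was placed as reversing. Trib3 was uneven between arrays, at 10.14, 8.92 and 9.55 against 9.07, 8.18 and 10.13 at 1 h, with overlapping groups, and at 8.37, 8.40 and 8.45 against 10.24, 9.54 and 10.07 at 6 h. The median change in untreated cells from 1 to 6 h over this list was -0.48, and in treated cells 0.09. Hspa5, the chaperone BiP, changed by -0.61 in untreated and 0.10 in treated cells, so its called growth of 0.71 lay mostly in the untreated arrays.

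Other growing increases fell outside these groups. Fosl1, an AP-1 subunit, lay at 9.78, 9.37 and 9.51 against 9.90, 9.86 and 9.92 at 1 h and at 9.06, 9.42 and 9.15 against 11.71, 11.58 and 11.56 at 6 h, and grew by 2.08 ± 0.20. Vcan, the gene of the proteoglycan versican, grew by 1.99 ± 0.25, and Csgalnact1, which starts chondroitin sulphate chains, by 2.12 ± 0.17. The Wnt antagonist genes Sfrp1 and Wif1 grew by 1.31 ± 0.16 and 1.03 ± 0.23. Of 26 Wnt pathway genes 5 had a higher and 4 a lower effect at 6 h (34.6% called, against 12.2% of all genes). The matrix protease genes Mmp13, a collagenase, and Adamts4, an aggrecanase, grew by 0.67 ± 0.14 and 0.60 ± 0.15, and the protease inhibitor gene Timp1 by 0.86 ± 0.12. These were the 3 called of 16 genes on that list (18.8%, against 12.2% of all genes).

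Growing decreases were the class with the most genes, but not after cyclic loess, which gave 897 of them and 954 growing increases. After quantile normalization there were 931 growing decreases and 870 growing increases. The changes of largest size in it were those of Smpd3, of Dock10, which activates small GTPases (-4.07 ± 0.40), of Car8, a carbonic anhydrase-related protein (-3.99 ± 0.21), and of Pdgfa. Smpd3, a neutral sphingomyelinase needed for bone mineralisation, stood at 11.15, 11.26 and 11.27 against 11.26, 11.09 and 11.12 at 1 h and at 11.17, 11.22 and 11.20 against 7.15, 7.0 and 6.93 at 6 h. Treated and untreated cells overlapped at 1 h, and by 6 h all treated arrays were low. Its effect changed by -4.10 ± 0.26 (adjusted p = 7.52e-11) while untreated cells moved by -0.03 between the times. Dmp1, a matrix protein gene of osteocytes, stood at 9.18, 9.29 and 9.30 against 9.55, 9.0 and 9.25 at 1 h and at 8.14, 8.91 and 7.94 against 6.00, 5.02 and 6.06 at 6 h. Only at 6 h were the treated arrays apart, and the change was -2.64 ± 0.48.

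Of 18 tested osteoblast and osteocyte genes, 9 had a lower effect at 6 h and 1 a higher one (55.6% called, against 12.2%, median change -0.49). Besides Smpd3 and Dmp1 the lower ones were Mef2c (-2.77 ± 0.39), a factor that drives osteocyte genes, the channel gene Panx3 (-2.07 ± 0.22), Omd (-1.41), the gene of osteomodulin, the homeobox genes Dlx5 (-1.27) and Dlx3 (-1.02), and Sp7 (-1.07 ± 0.16), all growing decreases, and Msx2 (-0.51), a fading increase. Pdpn, the gene of podoplanin, was the higher one at 0.66. Sost, the gene of sclerostin, changed by 0.03 ± 0.23 and was not called.

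Tnfrsf11b, the gene of osteoprotegerin, moved opposite to Tnfsf11. It stood at 10.79, 10.99 and 10.85 against 10.68, 10.88 and 10.44 at 1 h and at 11.31, 11.36 and 11.16 against 8.22, 8.12 and 8.59 at 6 h. The groups overlapped at 1 h and stood well apart at 6 h, and the effect changed by -2.76 ± 0.20 (adjusted p = 6.59e-10). Of 14 osteoclast-regulating genes 2 had a higher effect at 6 h (Tnfsf11 and Il11) and 4 a lower one. That is 42.9% called, against 12.2% of all genes, with a median change of 0.01. Among the lower ones were Sema3a (-1.0), a semaphorin that restrains osteoclasts, and the fading increases Lif and Ptgs2.

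Growth factor and guidance genes were called in both directions. Pdgfa, a subunit of platelet-derived growth factor, stood at 11.89, 12.13 and 12.01 against 11.88, 11.97 and 11.85 at 1 h and at 12.14, 12.10 and 12.15 against 9.20, 9.13 and 9.20 at 6 h. Treated arrays were level with the untreated ones at 1 h and low at 6 h, with a change of -2.84 ± 0.12 (adjusted p = 2.09e-13). Pdgfc and Vegfc, related growth factor genes, changed by -1.08 ± 0.13 and -1.17 ± 0.32, the latter not called without control 6 h replicate 2 or PTHrP 1 h replicate 1. Of 25 growth factor and receptor genes 6 had a lower and 3 a higher effect at 6 h (36% called, against 12.2% of all genes). Among 21 semaphorins, plexins, slits and netrins, 6 were lower and 2 higher (38.1% called, against 12.2%). Of the semaphorin co-receptors, Nrp2 changed by -1.52 ± 0.11 and Nrp1 by 1.24 ± 0.13. For Nrp1, 2 of its other 3 probe sets agreed in direction and the dimmest was called the other way, at -1.28.

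The effect on DNA replication genes was lower at 6 h. Of 18 tested, 11 had a lower and 0 a higher effect at a limma adjusted p below 0.05, or 16 and 0 at an unadjusted p below 0.05 (61.1% called, against 8.45% lower over all genes, median change -0.52 against 0.02). Mcm6, a subunit of the replicative helicase, stood at 9.93, 10.11 and 10.19 against 10.27, 10.36 and 10.07 at 1 h and at 10.17, 10.09 and 10.27 against 9.39, 9.32 and 9.20 at 6 h. The groups overlapped at 1 h only, and the change was -1.03 ± 0.18. Prim1, the DNA primase, changed by -0.85 ± 0.13 and Pcna, the polymerase clamp, by -0.58. Of 18 mitotic genes 2 were called (11.1%, against 12.2% of all genes), Ccnb2 (-0.63 ± 0.14) and Birc5 (-0.50 ± 0.12). At 24 h, a time outside the change of effect, all 18 tested were called lower with PTHrP, against 3.02% of all genes.

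Among early transcription factors the members split by class. The zinc finger factor Egr3 stood at 10.83, 10.99 and 11.08 against 10.97, 11.06 and 10.63 at 1 h and at 8.18, 8.09 and 7.97 against 5.77, 5.69 and 5.85 at 6 h. It dropped in untreated cells by 2.88 ± 0.15 and further with PTHrP, so its change of effect was -2.23 ± 0.21. Its other probe set changed by 0.07 and was not called, so the probe sets disagree and the change is uncertain. Klf2 (-1.87 ± 0.19), Klf4 (-1.58 ± 0.20) and Egr2 (-1.09 ± 0.21) were growing decreases too. Of 20 tested EGR, KLF and NR4A genes, 9 were lower and 1 higher (50% called, against 12.2% of all genes, median change -0.27). Of the lower ones 3 were fading increases instead. Egr1 was below untreated cells at both times (-0.63 ± 0.15 and -1.10 ± 0.15), and its change of -0.48 ± 0.21 was not called (adjusted p = 0.161).

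**Figure D2:**
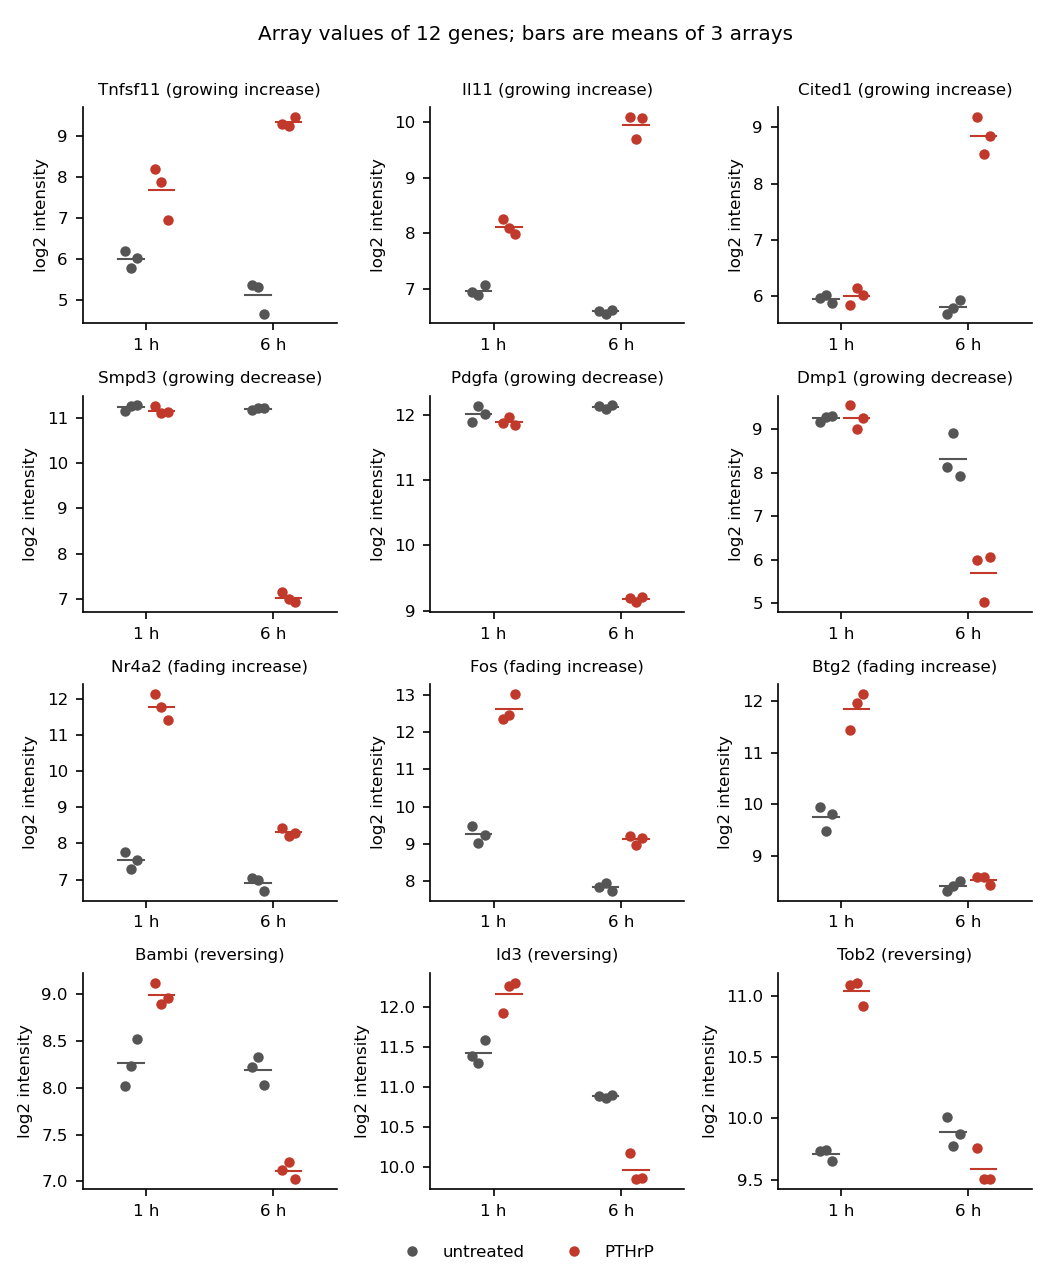
Points are the log2 intensities of single arrays, in untreated (grey) and PTHrP-treated cells (red) at 1 and 6 h, with bars at group means. Shown are 3 growing increases, 3 growing decreases, 3 fading increases and 3 reversing genes. Growing genes such as Cited1 and Smpd3 overlap at 1 h and part at 6 h. Btg2 does the opposite, while Nr4a2 and Fos stay apart at 6 h by a smaller gap. Bambi and Id3 change sides, as does Tob2 by a narrow gap on the probe set plotted.

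Fading increases of largest size included Nr4a2, Sik1, Foxc2 and Fos. Nr4a2, an orphan nuclear receptor, stood at 7.76, 7.28 and 7.54 against 12.14, 11.79 and 11.42 at 1 h and at 7.04, 6.98 and 6.69 against 8.42, 8.22 and 8.28 at 6 h. All treated arrays were high at both times, with a much smaller gap at 6 h. Its effect was 4.25 ± 0.24 at 1 h and 1.40 ± 0.24 at 6 h, a change of -2.85 ± 0.33 (adjusted p = 1.60e-06). Fos, an AP-1 subunit, stood at 9.49, 9.02 and 9.25 against 12.36, 12.47 and 13.03 at 1 h and at 7.86, 7.94 and 7.74 against 9.23, 8.99 and 9.17 at 6 h. The treated arrays were again above the untreated ones at both times, and the effect changed by -2.09 ± 0.21.

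Of the 76 fading increases, 46 were no longer called at 6 h and 30 were still called but smaller. Btg2, an inhibitor of proliferation, belonged to the former, at 9.95, 9.47 and 9.81 against 11.44, 11.97 and 12.13 at 1 h and 8.32, 8.41 and 8.51 against 8.59, 8.59 and 8.43 at 6 h. The groups were apart at 1 h and overlapped at 6 h, with effects of 2.10 ± 0.13 and 0.12 ± 0.13. Ptgs2, the inducible prostaglandin synthase, had effects of 2.15 ± 0.21 and 0.39 ± 0.21, and Smad6, an inhibitor of BMP signalling, of 1.37 ± 0.13 and 0.10 ± 0.13. Both were called at 1 h only. Other members no longer called at 6 h that changed by over 2-fold were Vps37b, Ankrd33b, Grhl3, Tob1, Epha2, Irx3, Bcl2l11 and Tiparp, with changes from -1.22 to -1.0.

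The 250 bases before the start of 5 fading genes and of Tnfsf11, a growing one, are shown because cyclic AMP response elements are the textbook route of the early response. They come from RefSeq on build GRCm38.p6, 5′ to 3′ on the strand of the gene. Capitals mark the core TGACG, read on either strand as TGACG or CGTCA, and the full element TGACGTCA, which holds the core on both strands. Nr4a2 is at chr2:57124004-57124253 (minus strand), Fos at chr12:85473640-85473889 (plus), Btg2 at chr1:134079156-134079405 (minus), Dusp1 at chr17:26508473-26508722 (minus), Rgs2 at chr1:144004150-144004399 (minus) and Tnfsf11 at chr14:78308044-78308293 (minus).
Nr4a2: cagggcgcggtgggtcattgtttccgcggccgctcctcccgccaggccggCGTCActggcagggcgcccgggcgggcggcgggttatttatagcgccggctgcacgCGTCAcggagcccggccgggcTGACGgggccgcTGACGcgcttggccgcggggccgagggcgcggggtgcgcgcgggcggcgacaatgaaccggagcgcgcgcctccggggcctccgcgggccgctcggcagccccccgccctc
Fos: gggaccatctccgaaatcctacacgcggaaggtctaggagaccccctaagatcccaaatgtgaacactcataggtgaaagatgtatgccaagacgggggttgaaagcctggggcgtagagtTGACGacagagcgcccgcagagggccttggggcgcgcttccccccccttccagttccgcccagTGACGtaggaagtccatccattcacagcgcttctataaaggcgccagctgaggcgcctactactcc
Btg2: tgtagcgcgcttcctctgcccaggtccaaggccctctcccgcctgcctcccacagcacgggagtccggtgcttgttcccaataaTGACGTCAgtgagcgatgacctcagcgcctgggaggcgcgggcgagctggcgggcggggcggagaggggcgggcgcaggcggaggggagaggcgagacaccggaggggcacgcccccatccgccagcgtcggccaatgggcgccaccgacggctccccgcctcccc
Dusp1: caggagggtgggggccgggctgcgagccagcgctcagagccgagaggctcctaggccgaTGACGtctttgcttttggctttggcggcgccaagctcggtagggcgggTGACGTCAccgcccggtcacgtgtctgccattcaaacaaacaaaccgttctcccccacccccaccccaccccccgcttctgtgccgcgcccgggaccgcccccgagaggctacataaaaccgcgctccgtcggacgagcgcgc
Rgs2: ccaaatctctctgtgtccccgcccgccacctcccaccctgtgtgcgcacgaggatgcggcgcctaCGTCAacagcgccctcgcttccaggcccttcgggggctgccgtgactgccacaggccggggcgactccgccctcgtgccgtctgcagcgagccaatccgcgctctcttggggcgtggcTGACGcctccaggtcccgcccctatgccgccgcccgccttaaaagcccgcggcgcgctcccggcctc
Tnfsf11: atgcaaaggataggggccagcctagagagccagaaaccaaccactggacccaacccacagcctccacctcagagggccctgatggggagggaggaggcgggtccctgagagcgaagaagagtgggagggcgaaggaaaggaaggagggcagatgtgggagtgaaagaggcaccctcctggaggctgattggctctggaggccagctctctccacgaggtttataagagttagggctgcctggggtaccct
Nr4a2 held 4 cores, Fos 2 and Rgs2 2, and Btg2 and Dusp1 held 1 full element each, while these letters are not in the window of Tnfsf11.

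Counted over windows from 250 bases before to 50 after the start, 34 of 60 fading increases with a RefSeq window held the core on either strand (56.7%), against 3991 of 12557 genes tested (31.8%). The full element was in 5 of the 60 (8.33%), against 3.15% of genes tested. Growing increases already called at 1 h held the core in 42.3% (11 of 26) and the full element in 11.5% (3 of 26), and all genes higher at 1 h held them in 43.2% and 6.53%. All growing increases held the core in 30.8%, growing decreases in 30.6% and reversing genes in 29.4% (5 of 17). Genes higher at 1 h whose change was not called held it in 37.4% (37 of 99). The AP-1 site TGANTCA was in 10.0% of fading increases and 6.94% of genes tested, and among genes with a single window in 4.17% and 5.49%, the other way round. Genes with several start sites have several windows, and among genes with a single window the core was in 54.2% of 48 fading increases and 29.0% of 10135 genes tested. Growing increases already called at 1 h and with a single window held the core in 27.8% (5 of 18), under that 29.0%. They held the full element in 5.56% (1 of 18), against 2.9% of genes tested with a single window. These are descriptions of letters in windows, with no test, and over all 32851 windows of the table the core was in 20.8%, the full element in 1.79% and the AP-1 site in 7.81%.

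Of the genes of cyclic AMP signalling 3 were fading increases, Sik1, Rgs2 and Gem, beside the 6 growing increases and 4 growing decreases of that list. Sik1, a kinase induced by cyclic AMP that restrains CREB co-activators, stood at 6.04, 6.08 and 6.09 against 8.87, 8.91 and 8.45 at 1 h and at 5.86, 5.82 and 5.57 against 6.18, 6.19 and 6.27 at 6 h. The treated arrays were above the untreated ones at both times, by little at 6 h, and the change was -2.21 ± 0.21 (adjusted p = 7.38e-08). Rgs2, which shortens G protein signals, had effects of 3.49 ± 0.14 and 1.96 ± 0.14, a change of -1.53 ± 0.20, and its treated arrays lay above the untreated ones at both times. Dusp1, a phosphatase of MAP kinases, had effects of 2.65 ± 0.17 and 1.36 ± 0.17, a change of -1.29 ± 0.23. Of 16 tested MAP kinase phosphatases and Sprouty genes, 3 had a lower effect at 6 h (Dusp1, Spry1 and Spry2). The receptor kinase inhibitor gene Errfi1 was the 1 with a higher effect, at 0.60 (25% called, against 12.2% of all genes, median change -0.13).

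Factors that destabilise mRNA or act with the BTG and TOB proteins moved in a single direction. Of 8 tested genes 6 had a lower effect at 6 h and 0 a higher one at a limma adjusted p below 0.05, or 6 and 0 at an unadjusted p below 0.05 (75% called, against 12.2%, median change -0.71). Btg2, Tob1, Zfp36 and Zfp36l2 were fading increases, with changes of -1.98, -1.10, -0.66 and -0.66, Tob2 reversed and Zfp36l1 was a growing decrease at -0.75. Of 15 tested circadian clock genes 6 were lower and 1 higher (46.7% called, against 12.2% of all genes, median change -0.39). Nfil3 and Per1, a repressor and a core clock gene, were fading increases at -1.09 ± 0.21 and -0.78 ± 0.14.

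Members of the AP-1 family, which pair to bind DNA, were divided. Of 13 AP-1 and ATF genes tested 3 were higher (Fosl1, Jun and Maff) and 3 lower (Fos, Fosl2 and Junb). That is 46.2% called, against 12.2% of all genes, with a median change of 0.03. Junb and Fosl2 faded from 1.51 and 1.46 to 0.83 and 0.94. Fosb was not called (-0.51 ± 0.23, adjusted p = 0.156), while it changed by -2.75 in untreated cells. Nr4a1 faded by -1.20 ± 0.18 with Nr4a2. For the third member, Nr4a3, the brightest probe set changed by 0.08 ± 0.19 and another by -2.40, so its probe sets disagree and its change is uncertain.

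Decreases at 1 h that faded were few. Klf6, a zinc finger factor, stood at 9.73, 9.60 and 9.59 against 8.73, 8.90 and 8.79 at 1 h and at 9.58, 9.55 and 9.45 against 9.50, 9.30 and 9.44 at 6 h. The treated arrays were low at 1 h and overlapped the untreated ones at 6 h, a change of 0.72 ± 0.13 (adjusted p = 0.000264). The other 7 were Nfkbia, Txnip, Zfp189, Filip1l, Gm11772, Gm17501 and 2810410L24Rik. Txnip, an inhibitor of glucose uptake, stood at 8.32, 8.23 and 8.25 against 7.20, 7.29 and 7.98 at 1 h, with replicate 3 the highest treated array, and at 7.25, 7.42 and 7.13 against 7.08, 7.23 and 7.15 at 6 h. The groups were apart at 1 h and overlapped at 6 h, where untreated cells had come down by 1.00. Its call was lost in the fit of the 12 arrays alone and without any of 5 of the 12 arrays in turn. Of the classes this one moved most in proportion without replicate 3 of PTHrP at 1 h, from 8 to 217 genes.

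Reversals mostly ran from higher to lower, with 18 of 21 in that direction. Bambi, a decoy receptor that dampens TGF-beta and BMP signals, stood at 8.02, 8.23 and 8.52 against 9.12, 8.89 and 8.96 at 1 h and at 8.22, 8.33 and 8.03 against 7.12, 7.20 and 7.02 at 6 h. All treated arrays were above the untreated ones at 1 h and below them at 6 h. The effect on Bambi was 0.73 ± 0.12 at 1 h and -1.08 at 6 h on the log2 scale, a change of -1.81 ± 0.17 (adjusted p = 7.06e-08). Id3, an inhibitor of helix-loop-helix factors and a BMP target, stood at 11.39, 11.29 and 11.59 against 11.92, 12.26 and 12.31 at 1 h and at 10.88, 10.86 and 10.90 against 10.17, 9.84 and 9.85 at 6 h. Its groups were apart at both times with the order turned, and the change was -1.67 ± 0.15.

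Tob2, an anti-proliferative protein of the BTG family, stood at 9.74, 9.74 and 9.65 against 11.08, 11.11 and 10.92 at 1 h and at 10.01, 9.78 and 9.88 against 9.76, 9.50 and 9.51 at 6 h. Its effect of 1.33 at 1 h was well clear of the spread, and its effect of -0.30 at 6 h left only a narrow gap between the groups. Its other 4 probe sets had effects between -0.12 and 0.14 at 6 h, and the gene was placed as reversing in 20 of 25 other settings, so its turn below untreated cells rests on the probe set shown. Spry2, an inhibitor of receptor kinase signalling, reversed from 1.01 to -0.32, but in only 14 of 25 other settings, and its dimmer probe set changed by -0.03. Cyp26b1, which degrades retinoic acid, reversed from 0.87 to -0.56 and the homeobox gene Irx5 from 0.71 to -0.55. Rpl12, a ribosomal protein gene, reversed from 0.60 to -0.83, while 0 of 13 genes on the ribosomal protein list were called by limma, at an adjusted or an unadjusted p below 0.05. The 3 genes that went from lower to higher were Map3k14, a kinase of NF-kappa B signalling (-0.33 to 0.27), Gcnt2 (-0.35 to 0.64) and Ppp1r3c (-0.54 to 0.45). Of 28 tested BMP and TGF-beta genes 8 were lower, including Bambi, Id3, Smad6 and Fst (-0.90), and 2 higher. That is 35.7% called, against 12.2% of all genes, with a median change of -0.15.

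Some strong responses had no called change. Efnb2, the gene of ephrin B2, stood at 7.72, 7.19 and 7.13 against 9.30, 8.94 and 8.78 at 1 h and at 7.39, 7.05 and 6.93 against 8.66, 8.43 and 8.72 at 6 h. All treated arrays were above all untreated arrays at each time. The effects of 1.66 ± 0.16 and 1.48 ± 0.16 differed by -0.18 ± 0.23 (adjusted p = 0.651), and its other 3 probe sets were not called either. Cebpd, a CCAAT-binding factor, had effects of 1.58 and 1.49 (change -0.09 ± 0.24) and was still higher at 24 h by 1.61. Crem, a CREB family gene that also yields a repressor, had effects of 1.20 and 1.05 (change -0.15 ± 0.29). Of its other probe sets 1 changed by 0.53 without a call and a dim one by 0.41 with a call, so its course is uncertain. In all, 145 of 285 genes called at 1 h and 1559 of 3288 called at 6 h had no called change, which does not show that their effects were equal.

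Of the remaining lists, NF-kappa B subunits and feedback had 4 higher of 11 (36.4% called), among them Tnfaip3, an inhibitor of that pathway, at 0.91 ± 0.14. The other probe set of Tnfaip3 changed by 0.42 and was not called. Of these 4 genes Nfkbia was a fading decrease, and Rela (0.27) lost its call in 11 of 25 other settings. Prostaglandin genes had 1 higher and 3 lower of 8 (50%), with Ptges, a prostaglandin E synthase, growing by 0.77 and Ptger4, a prostaglandin E receptor, fading by -1.07. Extracellular matrix genes had 2 higher and 5 lower of 26 (26.9%), including Thbs1, the gene of thrombospondin 1, at -1.54 ± 0.14. Forkhead factors had 4 lower of 10 (40%), led by Foxc2, which faded from 2.72 to 0.60. Txnip and energy sensor genes had 2 higher and 2 lower of 10 (40%), and D cyclins and CDK inhibitors 1 and 3 of 11 (36.4%). The IGF axis had 1 higher and 3 lower of 12 (33.3%), and the Notch pathway 1 and 1 of 12 (16.7%). Other lists had a share near or under the background of 12.2%, namely glycolysis and hypoxia (13.6%), SRF targets and contractile genes (13.3%), amino acid transporters and tRNA synthetases (11.8%), mitotic genes (11.1%), chemokines and acute phase genes (7.69%), ephrins and Eph receptors (6.67%), interferon-stimulated genes (6.25%) and cholesterol synthesis (5.88%), and heat shock chaperones had 0 of 13 called by limma, at an adjusted or an unadjusted p below 0.05.

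**Figure D3:**
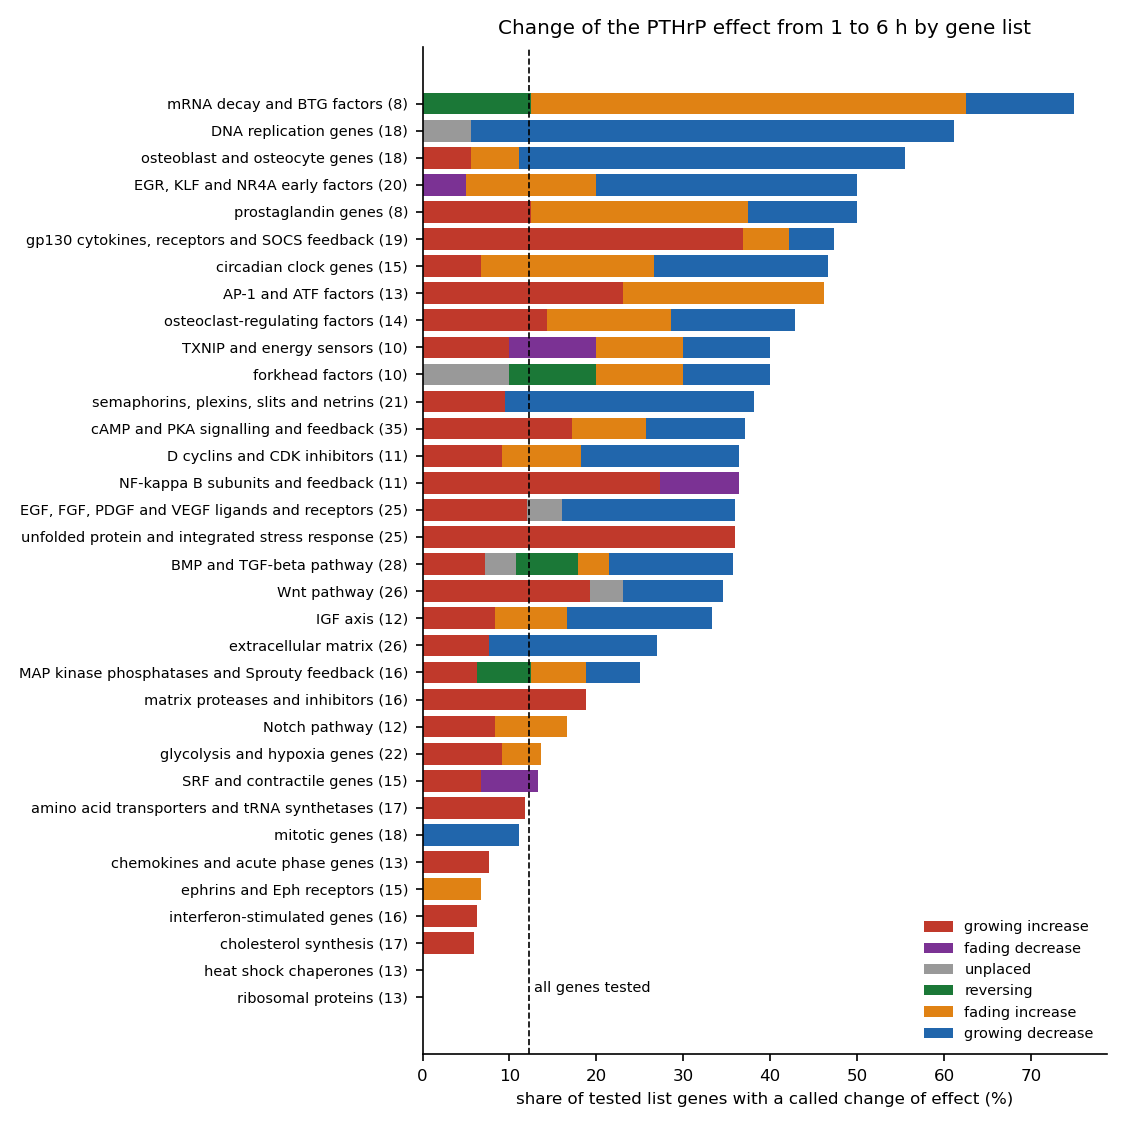
Bars show, for each gene list with its number of tested genes in parentheses, the share of tested genes with a called change of effect (%), coloured by class, and the dashed line marks 12.2% of all genes tested. The list of mRNA decay and BTG factors reaches 75%, DNA replication 61.1% and osteoblast genes 55.6%, and the unfolded protein list (36%) holds growing increases alone.

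The change of effect combines movement in treated and in untreated cells. PTHrP-treated cells differed between 6 and 1 h at 4439 genes (28.3%), and untreated cells at 356 (2.27%). Of the 530 growing increases 448 moved in treated cells only, 27 in both, 16 in untreated cells only and 39 in neither by this test. Of the 1143 growing decreases these numbers were 1081, 24, 13 and 25, and of the 76 fading increases 55, 18, 1 and 2. Of the 8 fading decreases they were 5, 0, 3 and 0. The untreated change was the larger in 58 growing increases, 31 growing decreases, 2 fading increases and 3 fading decreases. Among fading increases Ddit4, an inhibitor of mTOR, was the exception: it stood at 10.12, 9.99 and 9.98 against 12.48, 12.57 and 12.53 at 1 h and at 11.36, 11.37 and 11.61 against 12.41, 12.29 and 12.26 at 6 h. Its treated arrays stayed high and its untreated arrays came up by 1.42 ± 0.11, so its effect shrank by a change of -1.63 ± 0.16. Jun had a growing increase of 1.10 ± 0.19 of which -0.83 was the change in untreated cells and 0.27 that in treated cells. Without PTHrP 1 h replicate 3 Jun was placed as reversing, with an effect of -0.48 at 1 h.

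**Figure D4:**
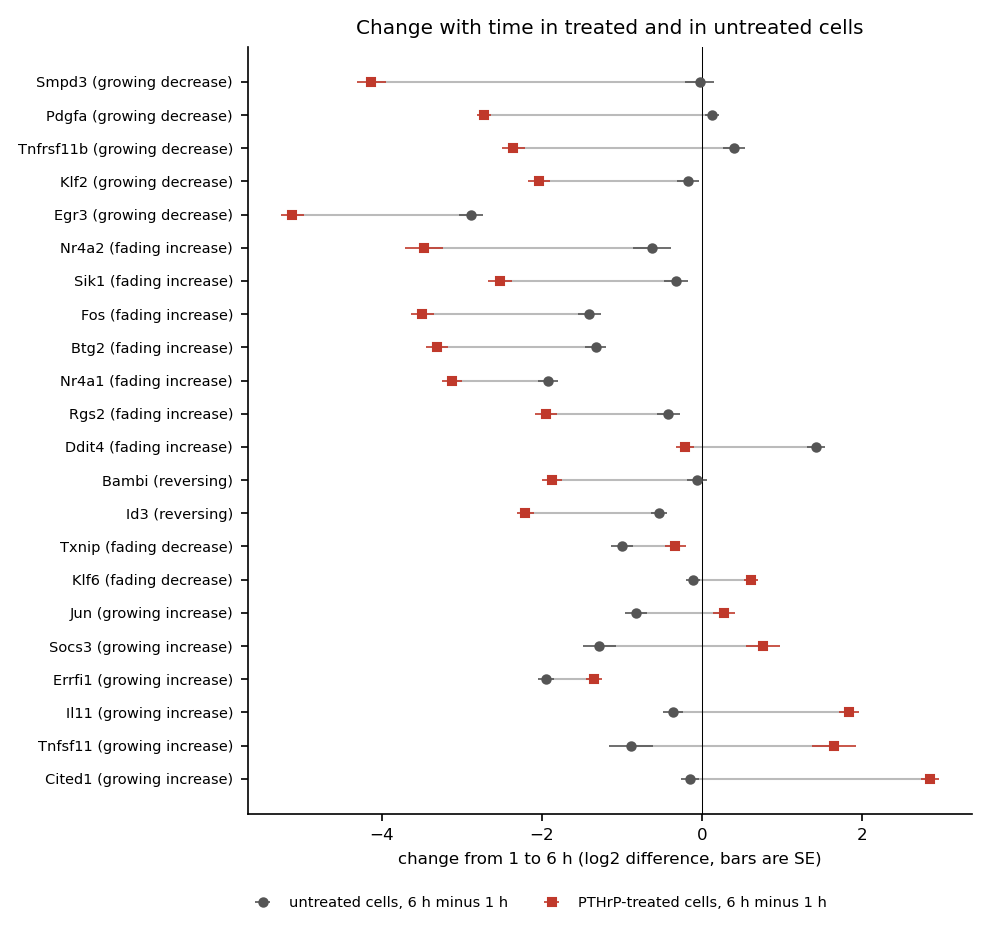
For 22 named genes the change from 1 to 6 h (log2 difference, bars are SE) is plotted in untreated cells (grey circles) and in PTHrP-treated cells (red squares), joined by a line whose length is the change of effect. Smpd3 and Cited1 moved in treated cells with untreated changes of -0.03 and -0.15, and Ddit4 has an untreated change of 1.42 with a treated change of -0.21.

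The effects at 24 h took no part in sorting the classes and show what was left of each. The arrays at 24 h did enter each gene's spread in the fit behind the calls. PTHrP against control called 485 genes higher (3.09%) and 474 lower (3.02%) at 24 h. Of the growing increases 120 were higher (22.6%) and 9 lower (1.7%), and of the growing decreases 178 were lower (15.6%) and 22 higher (1.92%). Of the 76 fading increases 7 were higher and 2 lower, and of the 18 reversals to lower 5 were lower, Bambi and Id3 among them at -0.56 and -0.70. Dmp1 was lower by -3.96 and Socs3 and Csgalnact1 higher by 2.30 each, while Cited1, Il33, Il11 and Ramp3 lay between -0.08 and 0.02. With classes formed without replicate 3 of PTHrP at 1 h, the shares were 18% higher for growing increases and 12.1% lower for growing decreases. Of 15 SRF target and contractile genes, of which 2 were called by the change of effect, 11 were lower at 24 h.

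PTH(1-34) was given at 10 nM and PTHrP(1-141) at 20 nM, so peptide and dose cannot be told apart, and both effects use the same untreated arrays. The median change of effect in the growing increases was 0.62 with PTHrP and 0.74 with PTH, in the growing decreases -0.56 and -0.61 and in the fading increases -0.82 and -0.66. The classes were made from PTHrP calls, which can make the PTHrP medians too large in size, so these medians do not compare the ligands. The difference between the changes, in which the untreated arrays cancel, was called for 151 genes (0.961%), and 83 of them were called by the change of the PTHrP effect. Among growing increases it was called for 45, with the larger change under PTH in 43, and among growing decreases for 35, with the larger change under PTH in 25. The 21 reversals had 0 such calls at a limma adjusted p below 0.05, and at an unadjusted p below 0.05 the difference was above 0 for 1 and below 0 for 5.

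Prg4, the gene of the lubricant lubricin, stood at 4.96, 4.86 and 4.93 against 4.74, 5.03 and 5.19 with PTHrP at 1 h and at 4.82, 4.86 and 5.12 against 6.32, 5.78 and 6.19 at 6 h. The groups overlapped at 1 h and were apart at 6 h. Its effect grew by 1.10 ± 0.25 under PTHrP and by 3.50 ± 0.25 under PTH, a difference of -2.41 ± 0.25 (adjusted p = 8.67e-06). Ramp3 grew by 2.11 and 3.66, Il33 by 2.88 and 4.55 and Il11 by 2.20 and 3.35. Pth1r changed by -0.42 and -1.16, a difference of 0.75 (adjusted p = 0.00535). For Gem, a small GTPase, the changes had opposite signs: its effect went from 2.74 to 1.73 under PTHrP and from 3.06 to 3.84 under PTH, a difference of -1.80 ± 0.28 (adjusted p = 0.00138). The PTHrP change of Gem, -1.01 ± 0.28, passed, but not without control 1 h replicate 2, PTHrP 1 h replicate 1 or PTHrP 6 h replicate 3, and its PTH change of 0.79 did not pass (adjusted p = 0.0532).

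**Figure D5:**
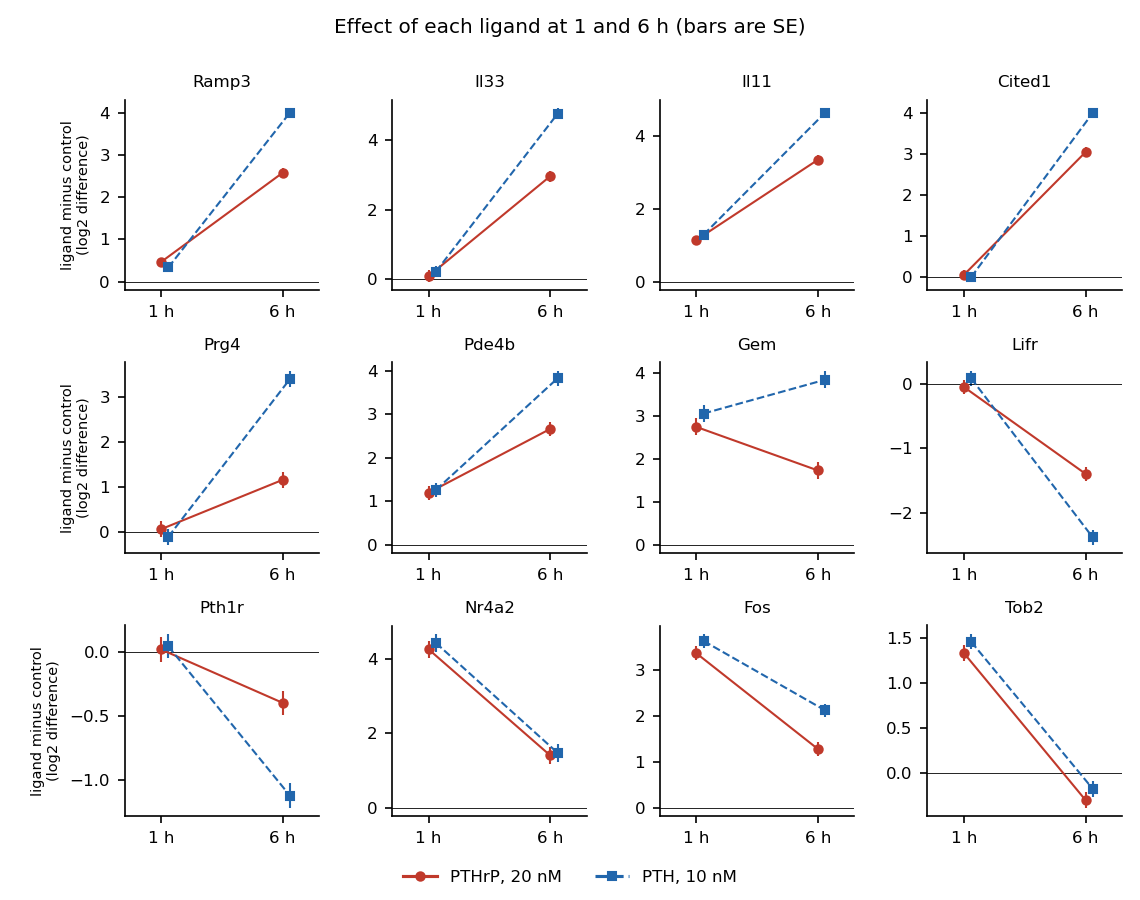
The effect of PTHrP (red circles, 20 nM) and of PTH (blue squares, 10 nM) against the same untreated arrays (log2 difference, bars are SE) is plotted at 1 and 6 h for 12 genes. The lines of Gem part, from 2.74 to 1.73 and from 3.06 to 3.84, while those of Tob2 run together.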

How the data were processed

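RNA of 27 samples of KUSA4b10 cells was measured on Affymetrix Mouse430_2 arrays. The deposited table holds intensity values on a linear scale, made by the authors with RMA per the submitters' processing notes, and no label names the RMA version. The log2 of each value was taken. Probe sets with a single gene symbol in GEO's platform annotation were kept (34958 of 45101), each gene was represented by its brightest probe set, and genes reaching log2 5 on at least 3 arrays were tested (15711). limma 3.58.1 in R 4.3.3 fitted 9 group means over all 27 arrays (18 residual and 5.54 prior degrees of freedom), two-sided, with Benjamini-Hochberg adjustment over all genes tested and a threshold of 0.05. The median standard error of a change of effect was 0.144. Precision is limited by the 3 arrays per group. The members, classes and gene lists were chosen with earlier results of these data known.

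Genes are named by this rule: among called genes whose treated arrays all lay on 1 side of the untreated ones at the time of the larger effect, the 12 with the largest change in each growing class and in the fading increases, 6 fading decreases and 10 reversals, up to 4 called members of each list, and a set of known PTH targets. Others named in the text were chosen after their values were seen. Same-numbered arrays of untreated and PTHrP groups deviated together at 1 h (correlations of 0.188 to 0.449). At 6 h replicate 1 did so too (0.203), but not replicates 2 and 3 (-0.0446 and -0.118). The labels do not say that the numbers mark pairs, and they were not taken as pairs. With 3 against 3 arrays the smallest exact p is 0.1. The fit was tested on simulated data. Alternatives covered normalization, the filter, the probe set rule, array weights, a fold threshold, a replicate block and leaving out each array.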

Additional observations from a re-analysis of the deposited data

Results flagged for a closer look

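The change of effect from 1 to 6 h differed between PTHrP and PTH, by the limma test of the difference itself, for 17 named genes. PTHrP minus PTH was below 0 for Prg4 (-2.405), Gem (-1.801), Il33 (-1.67), Ramp3 (-1.551), Il11 (-1.147), Pde4b (-1.1), Cited1 (-1.011), Csgalnact1 (-0.7477), Sqle (-0.6935) and Timp1 (-0.5403). It was above 0 for Lifr (1.122), Pdgfa (0.7645), Pth1r (0.7469), Sp7 (0.6876), Ccn4 (0.5154), Nrp2 (0.5144) and Irs1 (0.5016).

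The effect of PTHrP itself had opposite called signs at 1 and 6 h for 11 named genes, with the difference tested by the change of effect. The changes were -1.813 for Bambi, -1.667 for Id3, -1.627 for Tob2, -1.434 for Rpl12, -1.425 for Cyp26b1, -1.333 for Spry2, -1.259 for Irx5, -1.224 for Enc1, -1.172 for Grasp, -1.054 for Fam107b and -0.7602 for Foxc1. Grasp was placed as reversing in 19 of 25 other settings, Tob2 in 20 and Spry2 in 14.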

How the results depend on the processing

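Of 136 named genes called, 58 kept call and direction in all 25 other settings, and 1 named value reversed: Nr4a3 was -0.8379 as the mean of its probe sets. With array weights the counts were 3041 higher, 3188 lower, 1502 growing increases, 2248 growing decreases, 310 fading increases, 492 fading decreases, 387 reversals and 1329 differences from PTH. Quantile normalization gave 949 higher, 870 growing increases, 17 fading decreases and 319 differences from PTH, and cyclic loess gave 1081, 954, 18 and 358. Testing against 1.5-fold left 60 higher, 105 lower, 59 growing increases, 85 growing decreases, 12 fading increases, 0 fading decreases, 0 reversals and 2 differences from PTH. Without both replicate 3 arrays of 1 h, an alternative chosen after seeing the data, there were 1130 higher, 2054 lower, 129 fading increases, 62 fading decreases, 59 reversals and 314 differences from PTH. Leaving out each array in turn gave 476 to 1705 higher, 938 to 2382 lower, 441 to 735 growing increases, 784 to 1624 growing decreases, 61 to 223 fading increases, 4 to 217 fading decreases and 16 to 147 reversals, and leaving out each of the 6 PTHrP arrays gave 101 to 330 differences from PTH. The highest of each of these counts was without PTHrP 1 h replicate 3. The fit of the 12 arrays alone gave 388 growing increases, 843 growing decreases, 64 fading increases, 6 fading decreases and 16 reversals. With the replicate block 553 genes were higher and 1244 lower, and with a replicate block within time 521 and 1150, with 79 differences from PTH. A replicate block at 1 h only, also chosen after seeing the data, gave 678 higher, 1466 lower and 126 differences from PTH. The causes were not tested.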
